A study of Mus musculus with 4 samples.

Results

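Accessible DNA was compared between CD8+ T cells that had been both stimulated and treated with phenelzine and CD8+ T cells that had been neither. The peak lists of these 2 libraries were merged wherever peaks overlapped by at least 1 bp on chromosomes 1 to 19 and X. This gave 10805 regions of the 15237 found in any of the 4 lists of the series. Of the 10805 regions, 4300 belonged to the stimulated phenelzine list alone, 1494 by the unstimulated untreated list alone and 5011 by both.

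The series title places the T cells in tumours, and the labels give the strain as BALB/c. Stimulated cells received phorbol myristate acetate (PMA, labelled 1 mg/mL) together with ionomycin (labelled 10 mM), and the exposure lasted 2 h. The labels do not say whether these are stock or final concentrations. Every condition is 1 library, and the design text states that there are no replicates. The dose and duration of phenelzine, the tumour, the number of mice and any cell sort are not stated in the sources at hand. With 1 library per condition there was no test, and every difference below is between these libraries.

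ATAC-seq marks DNA that the transposase Tn5 can reach, which in most cells is dominated by promoters and enhancers. PMA activates protein kinase C and RasGRP proteins upstream of the MAP kinases, whose targets include the AP-1 factors of the Fos and Jun families. Ionomycin raises calcium, so that calcineurin dephosphorylates NFAT and lets it enter the nucleus, and both drugs together bypass the T cell receptor. Phenelzine blocks the monoamine oxidases, and it also acts on LSD1, the histone demethylase encoded by Kdm1a.

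Promoters picked as examples, not all of them by peak strength, are shown first. Each sequence is the 300-base RefSeq window (GRCm38.p6, the assembly of mm10) from 250 bases before to 50 bases after a gene's start, read 5′ to 3′ on the strand of the gene. Capitals mark the bases under the peak. The reference is the C57BL/6J genome, so BALB/c bases may differ. In 6 windows the peak was in the stimulated phenelzine list and not in the unstimulated untreated list. They were those of Caap1 (chr4:94556747-94557046, minus strand), the histone gene H4c3 (chr13:23698409-23698708, minus strand), the nuclear receptor gene Nr4a3 (chr4:48045055-48045354, plus strand), the MAP kinase phosphatase gene Dusp2 (chr2:127335909-127336208, plus strand), the hypoxia factor gene Hif1a (chr12:73907617-73907916, plus strand) and Kdm1a itself (chr4:136602674-136602973, minus strand).
Caap1: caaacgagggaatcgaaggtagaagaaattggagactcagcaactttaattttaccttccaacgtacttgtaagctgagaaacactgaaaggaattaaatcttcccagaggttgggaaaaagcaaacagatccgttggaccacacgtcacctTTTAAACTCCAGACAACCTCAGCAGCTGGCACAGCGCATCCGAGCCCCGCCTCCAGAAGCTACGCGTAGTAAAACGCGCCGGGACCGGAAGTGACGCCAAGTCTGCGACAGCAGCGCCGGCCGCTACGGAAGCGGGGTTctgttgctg
H4c3: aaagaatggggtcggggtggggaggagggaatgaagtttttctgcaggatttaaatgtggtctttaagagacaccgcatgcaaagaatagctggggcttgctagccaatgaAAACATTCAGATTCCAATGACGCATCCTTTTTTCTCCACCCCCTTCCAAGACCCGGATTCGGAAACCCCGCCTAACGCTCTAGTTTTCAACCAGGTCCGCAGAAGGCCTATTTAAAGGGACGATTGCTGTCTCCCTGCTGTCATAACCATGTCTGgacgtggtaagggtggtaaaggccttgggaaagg
Nr4a3: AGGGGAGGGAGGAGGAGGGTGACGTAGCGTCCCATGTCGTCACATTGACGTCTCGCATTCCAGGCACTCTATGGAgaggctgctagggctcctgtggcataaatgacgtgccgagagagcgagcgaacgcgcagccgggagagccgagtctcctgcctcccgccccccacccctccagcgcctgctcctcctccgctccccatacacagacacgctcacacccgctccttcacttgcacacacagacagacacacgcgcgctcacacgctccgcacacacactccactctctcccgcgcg
Dusp2: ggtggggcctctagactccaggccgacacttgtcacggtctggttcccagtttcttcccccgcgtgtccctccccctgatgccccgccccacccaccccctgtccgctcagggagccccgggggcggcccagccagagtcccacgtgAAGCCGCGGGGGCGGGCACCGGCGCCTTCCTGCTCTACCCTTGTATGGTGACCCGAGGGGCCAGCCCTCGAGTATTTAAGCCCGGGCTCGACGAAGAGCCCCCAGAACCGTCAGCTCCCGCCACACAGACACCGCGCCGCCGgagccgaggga
Hif1a: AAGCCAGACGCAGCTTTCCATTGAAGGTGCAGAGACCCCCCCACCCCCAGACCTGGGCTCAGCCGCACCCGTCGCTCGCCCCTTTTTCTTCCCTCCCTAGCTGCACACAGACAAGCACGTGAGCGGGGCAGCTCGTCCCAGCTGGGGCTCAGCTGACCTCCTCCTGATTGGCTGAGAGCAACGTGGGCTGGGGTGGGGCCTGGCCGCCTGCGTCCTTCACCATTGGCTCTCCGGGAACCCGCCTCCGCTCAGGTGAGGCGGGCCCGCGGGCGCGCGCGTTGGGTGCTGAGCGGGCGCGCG
Kdm1a: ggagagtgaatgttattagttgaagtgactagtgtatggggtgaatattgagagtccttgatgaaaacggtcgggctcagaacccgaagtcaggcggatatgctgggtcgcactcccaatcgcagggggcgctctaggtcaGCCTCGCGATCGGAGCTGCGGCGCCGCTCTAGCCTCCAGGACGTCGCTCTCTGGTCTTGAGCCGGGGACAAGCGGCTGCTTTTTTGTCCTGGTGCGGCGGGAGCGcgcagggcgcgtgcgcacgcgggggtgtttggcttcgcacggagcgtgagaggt

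Another 3 windows had a peak in the unstimulated untreated list and none in the stimulated phenelzine list. These were Timmdc1 (chr16:38522614-38522913, minus strand), an assembly factor gene of mitochondrial complex I, the inhibitory receptor gene Tigit (chr16:43664135-43664434, minus strand) and Entpd1 (chr19:40612116-40612415, plus strand), which encodes the ectonucleotidase CD39.
Timmdc1: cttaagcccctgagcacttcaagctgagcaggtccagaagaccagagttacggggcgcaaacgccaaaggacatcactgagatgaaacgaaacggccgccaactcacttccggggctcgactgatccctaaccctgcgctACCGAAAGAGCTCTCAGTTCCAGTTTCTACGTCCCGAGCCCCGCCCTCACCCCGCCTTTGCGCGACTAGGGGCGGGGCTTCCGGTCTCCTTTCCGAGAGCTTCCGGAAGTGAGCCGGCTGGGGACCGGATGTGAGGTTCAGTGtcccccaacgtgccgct
Tigit: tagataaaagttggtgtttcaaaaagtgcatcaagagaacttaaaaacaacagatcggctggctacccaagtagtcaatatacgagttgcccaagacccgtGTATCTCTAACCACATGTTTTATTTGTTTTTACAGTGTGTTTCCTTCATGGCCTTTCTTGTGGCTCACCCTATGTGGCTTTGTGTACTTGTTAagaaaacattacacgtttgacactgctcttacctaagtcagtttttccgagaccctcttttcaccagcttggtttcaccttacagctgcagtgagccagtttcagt
Entpd1: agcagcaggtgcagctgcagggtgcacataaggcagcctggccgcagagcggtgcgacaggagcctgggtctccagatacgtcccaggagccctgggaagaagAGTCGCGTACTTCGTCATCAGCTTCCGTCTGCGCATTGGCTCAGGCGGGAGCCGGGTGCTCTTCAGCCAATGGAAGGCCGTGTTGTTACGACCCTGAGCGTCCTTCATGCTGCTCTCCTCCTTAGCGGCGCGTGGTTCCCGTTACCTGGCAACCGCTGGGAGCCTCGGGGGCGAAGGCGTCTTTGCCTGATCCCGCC

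As examples of strong shared promoters, H2-D1 (chr17:35262844-35263143, plus strand), a class I histocompatibility gene, and Top2a (chr11:99024140-99024439, minus strand), the topoisomerase gene of dividing cells, are shown with the stimulated phenelzine peak in capitals.
H2-D1: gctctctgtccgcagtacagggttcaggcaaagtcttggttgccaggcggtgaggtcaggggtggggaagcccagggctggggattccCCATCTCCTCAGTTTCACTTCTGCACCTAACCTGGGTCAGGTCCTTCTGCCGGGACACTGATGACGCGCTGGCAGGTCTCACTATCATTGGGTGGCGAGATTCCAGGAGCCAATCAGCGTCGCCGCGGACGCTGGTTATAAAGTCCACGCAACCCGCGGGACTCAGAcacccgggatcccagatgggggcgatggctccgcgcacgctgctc
Top2a: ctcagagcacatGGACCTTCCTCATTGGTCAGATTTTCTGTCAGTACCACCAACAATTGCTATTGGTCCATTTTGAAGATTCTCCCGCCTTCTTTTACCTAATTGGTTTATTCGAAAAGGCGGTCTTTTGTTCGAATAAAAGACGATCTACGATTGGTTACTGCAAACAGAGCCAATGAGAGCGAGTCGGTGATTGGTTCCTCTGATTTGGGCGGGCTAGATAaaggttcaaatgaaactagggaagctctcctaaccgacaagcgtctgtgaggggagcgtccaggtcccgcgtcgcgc

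The peaks did not all cover the same stretch of the promoter. At Hif1a the whole window of 300 bases lay under the peak, while at Nr4a3 the peak covered only the first 75 bases, away from the start. The peak of Kdm1a covered 105 bases and that of Tigit 93. Tigit also stood apart in composition, with 41.3% G and C and 5 CpG, where Kdm1a had 61.3% and 29 CpG and Nr4a3 64.7% and 26 CpG.

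The stimulated phenelzine list held 9322 peaks on the chromosomes used and the unstimulated untreated list 6519, covering 1634.87 and 1137.68 kb. Read totals are not in the lists, so depth is known only through the background that the authors' fold and p columns imply, which was 1.25 times higher in the stimulated phenelzine library. The number of peaks was 1.43 times higher. The part of this difference in background in the additional peaks was not tested. A region missing from a list had no peak past the authors' threshold there, which does not show that its DNA was closed.

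CD8+ identity could be checked only weakly. Cd8a and Cd8b1, the genes of the CD8 chains, and Cd3e, a chain of the T cell receptor complex, had 0 regions in both lists within their loci, the gene body with 20 kb on either side. Of 9 markers of CD8 T cells, 4 had a region, and Cd3d, Cd3g, Lck and Thy1 each had 1 in both lists. Cd3d and Cd3g are neighbours and shared the same region. Over all protein-coding genes 51.1% had a region in the locus. Over 9 myeloid markers the regions summed to 13 in the stimulated phenelzine list and 8 in the unstimulated untreated list, with Csf1r, Itgam and Adgre1 at 0 in both. Over 7 B cell markers the sums were 2 and 5, with Cd79b, Ms4a1, Pax5 and Cd22 at 0. Over 7 markers of CD4 and regulatory T cells they were 3 and 2, with Cd4 and Ctla4 at 0. The sums were 1 and 0 for 5 NK cell markers, 3 and 0 for 6 epithelial markers with Epcam at 0, and 4 and 1 for 8 stromal and endothelial markers with Col1a1 and Cdh5 at 0. Among all these markers Cd68 (4 against 2 regions), Fcgr3 (2 against 0) and Prrx1 (3 against 0) differed by 2 or more. No marker of another cell type had a region at either gene end in 1 list alone. In both lists 1 of the 7 markers of CD4 and regulatory T cells had such a region, and 0 of the 9 markers of CD8 T cells. The part of other cell types in the results was not tested.

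Regions of 1 list alone were mostly those of the stimulated phenelzine list. They made up 39.8% of the 10805 (95% exact interval 38.9 to 40.7, counting error only, as for all intervals here), those of the unstimulated untreated list 13.8% (13.2 to 14.5) and shared regions 46.4% (45.4 to 47.3). Seen from either side, 53.8% of the regions of the stimulated phenelzine list were also in the other, against 77.0% of the regions of the unstimulated untreated list. Among the regions of 1 list alone, 74.2% thus belonged to the stimulated phenelzine list. That share was 62.1% when the stimulated phenelzine peaks were scaled to the lower background, and to 50.1% when both lists were cut to the same number of peaks, which evens the sides by construction. The regions of 1 list alone were shorter, with a median of 108 bp in the stimulated phenelzine list and 97 bp in the unstimulated untreated list, against 211 bp for shared regions.

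They were also weaker. The median −log10 q, the caller's measure of confidence within a list, was 2.04 for regions of the stimulated phenelzine list alone and 2.14 for those of the unstimulated untreated list alone. Shared regions had medians of 3.56 and 3.30 in the same order of lists. Of the stimulated phenelzine peaks with −log10 q from 1 to 2, 24.4% were overlapped by the other list, and of those at 10 or more 95.3%. For unstimulated untreated peaks the shares ran from 52.2% to 100%, with all 114 of the strongest peaks present in both. Only 7 of the 150 strongest stimulated phenelzine peaks had no counterpart.

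**Figure D1:**
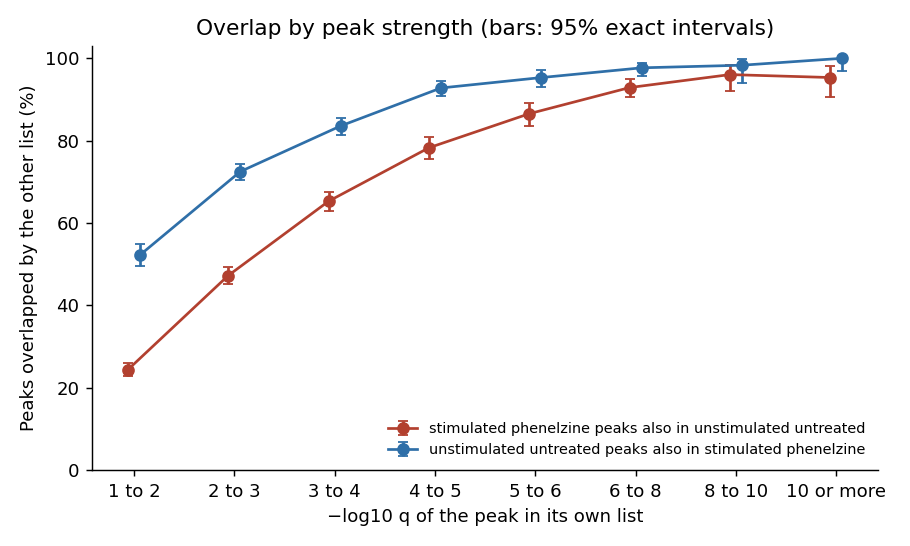
Share of peaks (vertical axis, %) of each list that overlapped a peak of the other, by the −log10 q of the peak in its own list (horizontal axis). Points are shares and bars are 95% exact intervals. Both lines climb with peak strength, from 24.4% to 95.3% for the stimulated phenelzine list and from 52.2% to 100% for the unstimulated untreated list.

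Shared regions were mostly promoters. A region within 1 kb of either end of a protein-coding gene was called a gene-end region, and 72.7% (71.5 to 74.0) of shared regions were of this kind. The share was 34.3% (32.9 to 35.8) for regions of the stimulated phenelzine list alone and 38.8% (36.3 to 41.3) for those of the unstimulated untreated list alone. Regions inside genes beyond their ends made up 32.5%, 32.1% and 14.0% of the stimulated phenelzine, unstimulated untreated and shared regions. Where a region did lie at a start, it sat just upstream of it. The median position of the centre was −35 bp for the stimulated phenelzine list alone, −42 bp for the unstimulated untreated list alone and −61 bp for shared regions. Over all regions the median distance to a start was 19.2, 13.9 and 0.13 kb.

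Counted by gene, 1493 of 21631 protein-coding genes (6.9%) had a gene-end region in the stimulated phenelzine list alone, 560 (2.59%) in the unstimulated untreated list alone and 4435 (20.5%) in both. By starts only, for the 17274 genes with a RefSeq promoter window, the numbers were 1292 (7.48%), 450 (2.61%) and 3840 (22.2%). Some genes counted as held by both had separate regions in the 2 lists. Of the regions of the stimulated phenelzine list alone, 145 (3.37%) had an unstimulated untreated region within 500 bp, among them regions at the promoters of Egr1, Junb, Bag3 and Gadd45b, which were picked out after their values were seen.

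The strongest promoter of the stimulated phenelzine list alone was Caap1, which encodes a conserved inhibitor of apoptosis. Its region on chromosome 4 from 94556756 to 94556894, centred 29 bp upstream of the start, had a fold enrichment of 10.1 over local background and −log10 q 13.5. The unstimulated untreated list had no peak there, while the stimulated untreated list had one with −log10 q 3.87 and the unstimulated phenelzine list one with 8.20. This peak is the stretch in capitals above. Next came Mprip, a myosin phosphatase partner (fold 9.04, −log10 q 10.9), and a region at the start of Pam16, a mitochondrial import gene, which also lies within 1 kb of an end of Glis2 (8.98 and 10.7). Actr1a, the core subunit gene of dynactin, had fold 8.14 and −log10 q 10.1. H4c3 followed with 8.20 and 8.89, and the stimulated untreated and unstimulated phenelzine lists also held it, with −log10 q 8.38 and 5.51. The rest of the first 10 were general genes of translation, splicing, vesicle traffic and respiration, with a phosphatase. They were Rpl37a (ribosomal protein), Snrpf (spliceosome core), Ykt6 (vesicle fusion), Ppm1d (phosphatase of the p53 response) and Ndufb8 (complex I), with −log10 q from 7.96 at Ndufb8 to 8.38 at Rpl37a. At Rpl37a the single-factor lists, those of cells given only stimulation or only phenelzine, also had peaks, with −log10 q 10.5 and 10.2. All 10 of these regions had a peak in at least 1 single-factor list.

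The 10 strongest gene-end regions of the unstimulated untreated list alone had −log10 q from 5.85 to 8.79. Timmdc1 led the unstimulated untreated list alone, on chromosome 16 from 38522631 to 38522773 (fold 8.28, −log10 q 8.79). It was held by both single-factor lists as well, with −log10 q 3.87 in the stimulated untreated and 5.29 in the unstimulated phenelzine list, so that the stimulated phenelzine list was the only one of the 4 without it. Nomo1, an endoplasmic reticulum membrane gene (fold 8.26, −log10 q 8.63), and Mybbp1a, a nucleolar protein gene (7.70 and 7.58), were likewise missing only from the stimulated phenelzine list. A region between Ttc19 and Zswim7 had 7.49 and 7.25, and one at Naa50 near Atp6v1a 6.94 and 6.37. Ppp3ca, a catalytic subunit gene of calcineurin, had a region at its end on chromosome 3 from 136669926 to 136670091 (fold 6.89, −log10 q 6.34). The stimulated untreated list held that region with −log10 q 5.49 and the unstimulated phenelzine list with 1.99. Pop4, Pde7a, Fanci next to Rlbp1, and Gnpat next to 2810004N23Rik completed the 10, with −log10 q from 5.85 at Fanci and Gnpat to 6.21 at Pop4.

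The strongest shared gene-end regions included very tall peaks. Gm20594 had −log10 q 247 in the stimulated phenelzine and 256 in the unstimulated untreated list, and Lars2, the mitochondrial leucyl-tRNA synthetase gene, 59.1 and 33.7. No filter on repeats or mapping was applied here, so such peaks were kept. H2-D1 had fold 9.54 in the stimulated phenelzine list and 11.2 in the unstimulated untreated list. For Top2a the folds were 10.8 and 7.05 in the same order, and for the divergent histone genes H2ac11 and H2bc11 they were 11.0 and 6.76. Cenpk and Ppwd1 shared a region with 11.3 and 7.55, Utp15 and Ankra2 one with 11.0 and 9.15. Atad3a had 10.3 and 6.58, Ciao3 10.4 and 7.09, and Hjurp, the chaperone gene of the centromeric histone, 7.08 and 7.42. Fold belongs to each list's own background, so these pairs are set side by side without a comparison.

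Away from gene ends, 2 of the 3 strongest regions of the stimulated phenelzine list alone lay in the first part of chromosome 9, at 319502 and 313048 bp from Alkbh8, their nearest gene. For the unstimulated untreated list alone the 3 strongest lay nearest Mtss1 (−log10 q 6.47), Gcfc2 (6.25) and Csmd1 (6.13). Shared regions nearest Galc, Eea1 and Chl1 had the highest −log10 q of all 3 classes, at 482, 400 and 386 in the stimulated phenelzine list. The first of them lay 1140673 bp from Galc. No filter on repeats or mapping was applied to regions away from gene ends either.

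The 2 single-factor lists show where else these regions were found. Of the 4300 regions of the stimulated phenelzine list alone, 43.9% (42.4 to 45.4) had a peak in the stimulated untreated list and 31.3% (29.9 to 32.7) in the unstimulated phenelzine list. More precisely, 936 (21.8%) were also in the stimulated untreated list only, 395 (9.19%) by the unstimulated phenelzine list only, 950 (22.1%) by both and 2019 (47.0%) by neither. The 1494 regions of the unstimulated untreated list alone divided in nearly the same proportions. Of these, 312 (20.9%) were held by the stimulated untreated list only, 134 (8.97%) by the unstimulated phenelzine list only, 379 (25.4%) by both and 669 (44.8%) by neither. The stimulated untreated list is also the longest of the 4, with 1.31 times the peaks of the unstimulated phenelzine list, and the ratio of their shares was 1.40 in the former class and 1.35 in the latter. So the peaks present with both agents were no more often found with stimulation alone, or with phenelzine alone, than the peaks missing with both agents, at 53.0% and 55.2% in either single-factor list. These counts all rest on the same unstimulated untreated library as reference. Regions in neither single-factor list were the weakest, with a median −log10 q of 1.81 in the stimulated phenelzine list, and only 20.4% of them lay at gene ends, against 57.1% of those held by both single-factor lists.

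**Figure D2:**
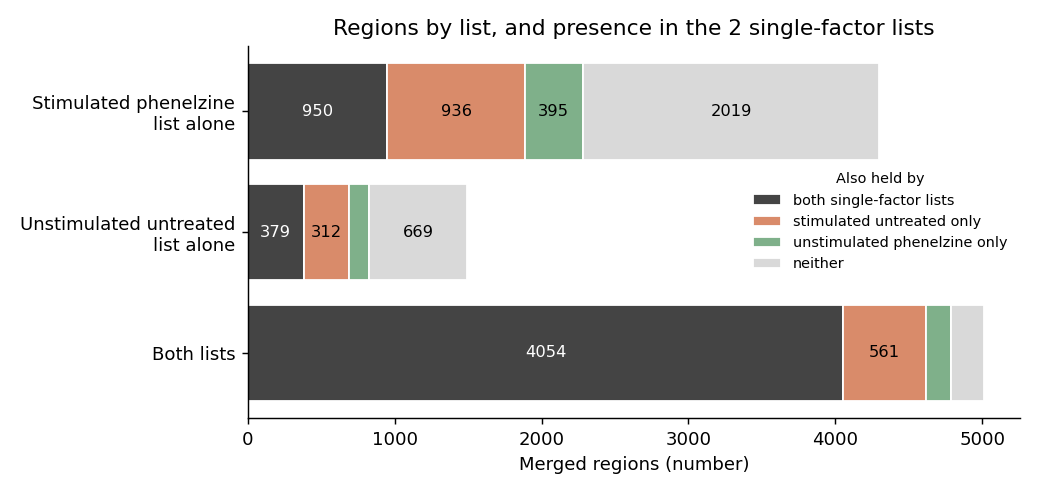
Number of merged regions (horizontal axis) held by the stimulated phenelzine list alone, the unstimulated untreated list alone and both, split by colour into those also held by both single-factor lists, 1 of them or neither. The first 2 bars divide in similar proportions, with 2019 of 4300 and 669 of 1494 regions in neither single-factor list, while 4054 of 5011 shared regions were in all 4 lists.

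Gene lists for the pathways that PMA and ionomycin engage, for T cell functions and for the targets of phenelzine with their partner proteins were then compared by the number of regions per locus. Over all 21631 protein-coding genes, 4298 (19.9%) had more regions in the stimulated phenelzine list and 1349 (6.24%) fewer. Among the 11052 genes with any region in the locus these were 38.9% and 12.2%, and the median difference was 0, as it was in each of the 13 pathway lists. The split of more against fewer moved with the number of peaks, from 76.1% more to 51.2% with lists of equal size and 66.2% with −log10 q of at least 3. Genes with more outnumbered those with fewer in 12 of the 13 lists, but in only 2 with lists of equal size, where fewer outnumbered more in 10. With −log10 q of at least 3 more outnumbered fewer in 7 lists and fewer more in 4. That minimum was applied before merging, so a weaker peak of the other list at the same place was not counted.

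Genes of AP-1 and the early response, which activated T cells transcribe soon after a signal, differed in both directions. Of 27 members 25 had a region, of which 9 (36%) had more and 7 (28%) fewer in the stimulated phenelzine list. The share with more was thus near that of all genes, and the share with fewer above it. With lists of equal size 3 had more and 14 fewer, and with −log10 q of at least 3 it was 1 and 7, so the balance of the list depends on that choice. Nr4a3, an orphan nuclear receptor gene that responds to receptor signals, had 2 regions in the stimulated phenelzine list and 0 in the unstimulated untreated list, beside 3 peaks in the stimulated untreated and 1 in the unstimulated phenelzine list. The promoter peak printed above, on chromosome 4 from 48045015 to 48045129, had fold 4.68 and −log10 q 2.58, and the stimulated untreated list held it with −log10 q 6.51. Nr4a2, its relative, had 1 region against 0, at the promoter (−log10 q 2.68), which the stimulated untreated list also held. Fosb, an AP-1 subunit gene, had 5 against 2, with 3 peaks in each single-factor list. At its promoter both lists had a peak, with fold 4.29 in the stimulated phenelzine and 6.05 in the unstimulated untreated list, and the difference in regions turned to −1 with lists of equal size. Promoter regions of the stimulated phenelzine list alone were also found at Dusp2 (−log10 q 1.70, in no other list), at the RNA-decay factor genes Zfp36 (2.82) and Zfp36l1 (1.55), and at the small Maf gene Maff (2.14). The whole locus of Zfp36 had 3 regions against 4, so it is among the members with fewer.

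Close relatives of these genes differed the other way. Egr3, a zinc-finger gene that NFAT induces, had 0 regions in the stimulated phenelzine list and 2 in each of the other 3 lists. With −log10 q of at least 3 the difference at Egr3 was 0. Dusp1, the sister phosphatase gene of Dusp2, had a promoter region with −log10 q 3.43 in the unstimulated untreated list, which was also in both single-factor lists (2.78 and 1.46) and missing with both agents. The AP-1 genes Fosl1 and Fosl2 had gene-end regions in the unstimulated untreated list alone, with −log10 q 1.82 and 1.70. Fos itself had 1 region against 2. Jun, Jund, Egr2, Nr4a1, Dusp5 and Btg2 had the same number in both lists.

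For the NF-kB pathway, 6 of 17 members with a region had more and 3 fewer, which turned to 4 and 6 with lists of equal size and 2 and 3 with −log10 q of at least 3. Nfkbie, which encodes the inhibitor IkB epsilon, had 4 regions in the stimulated phenelzine list, 1 in the unstimulated untreated list, 4 in the stimulated untreated and 1 in the unstimulated phenelzine list. Both stimulated lists thus had 4 and both unstimulated lists 1. The difference of 3 between the lists compared was 0 with −log10 q of at least 3. It was 1 with lists of equal size and also within 5 kb of the gene. The locus holds Hsp90ab1, an HSP90 gene, which has the same 4 and 1 regions, so these 2 genes stand for 1 observation. Nfkbib, another IkB gene, had a gene-end region in the stimulated phenelzine list alone. Rela, the p65 subunit gene, and Nfkbid had one in the unstimulated untreated list alone, with −log10 q 3.72 and 2.75. The genes of the upstream kinases, Ikbkb, Chuk and Ikbkg, had 0 regions in both lists.

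The NFAT and calcineurin list had 9 of 19 members with a region (47.4%) with more and 1 (5.26%) with fewer, beside 38.9% and 12.2% of all genes. With lists of equal size 3 had more and 5 fewer, and with −log10 q of at least 3 it was 5 and 1. Calcineurin subunit genes took opposite sides. Ppp3cb and Ppp3cc, which encode catalytic subunits, and Ppp3r1, which encodes the regulatory subunit, had a gene-end region in the stimulated phenelzine list alone, with −log10 q 1.25, 1.73 and 1.49. Those are weak peaks beside the 6.34 of the region that Ppp3ca had in the unstimulated untreated list alone. Rcan1, the calcineurin regulator gene that NFAT induces, had 3 regions against 1, with 2 peaks in the stimulated untreated and 1 in the unstimulated phenelzine list. One of them lay at an internal start (chromosome 16 from 92400083 to 92400268, centred 97 bp upstream, −log10 q 1.79) and was in no other list. The difference at Rcan1 was 0 with −log10 q of at least 3 and with lists of equal size. Itpr1, the calcium release channel gene, had 4 against 2 and 4 in each single-factor list. Cabin1, a calcineurin-binding repressor gene, had 3 against 1, and the NFAT gene Nfatc2 3 against 4.

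Of the genes for protein kinase C, RasGRP and MAP kinases, which lie directly downstream of PMA, 9 of 20 with a region (45%) had more and 2 (10%) fewer. The counts were 5 and 4 with lists of equal size, and 6 and 0 with −log10 q of at least 3. Prkch had 6 regions in the stimulated phenelzine list and 3 in the unstimulated untreated list, beside 5 and 4 in the stimulated untreated and unstimulated phenelzine lists. All 3 of its unstimulated untreated regions were also in the stimulated phenelzine list. Prkce had 2 against 0, Mapk3, the ERK1 gene, 2 against 0, and Elk1, an ERK target that works with SRF, 2 against 0. Each of these 3 genes had a gene-end region in the stimulated phenelzine list alone, with −log10 q from 1.65 at Mapk3 to 2.12 at Elk1. At Prkce the difference was 0 with −log10 q of at least 3 and with lists of equal size. Prkcq and Rasgrp1, the main T cell members, had 0 in all 4 lists. Mapk9, a JNK gene, had its promoter region in the unstimulated untreated list alone (−log10 q 2.00), while both single-factor lists held it.

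**Figure D3:**
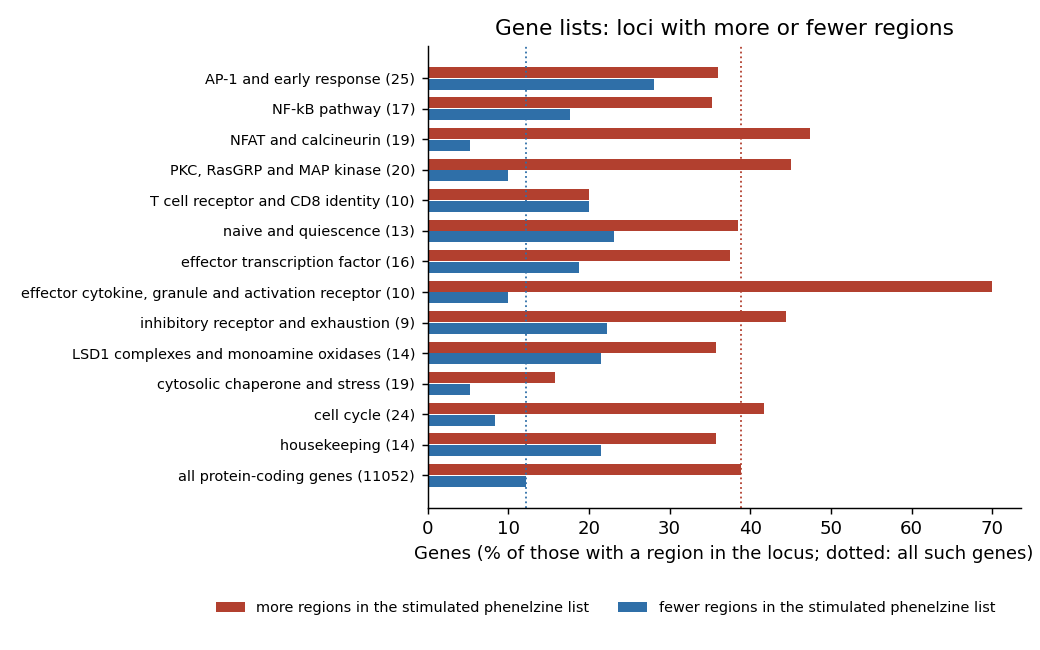
Share of genes with a region in the locus (horizontal axis, %) that had more or fewer regions in the stimulated phenelzine list than in the unstimulated untreated list, for 13 gene lists and all protein-coding genes, with the number of genes in brackets. Dotted lines mark 38.9% and 12.2% over all genes. AP-1 and early response genes have 36% and 28%, cytosolic chaperone and stress genes 15.8% and 5.26%, and the highest share with more, 70%, rests on 10 genes. With lists of equal size fewer outnumbered more in 10 of the 13 lists.

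Of 19 genes for the T cell receptor and CD8 identity, 9 (47.4%) had no region, beside 48.9% of all protein-coding genes, 2 had more and 2 fewer. The counts with more and fewer were 1 and 2 with lists of equal size, and 0 and 2 within 5 kb of the gene. With −log10 q of at least 3 they were 2 and 1. Ptprc, the gene of the phosphatase CD45, had 1 region against 3, and 1 in each single-factor list. Of its 3 unstimulated untreated regions on chromosome 1, those from 138125427 to 138125512 (−log10 q 3.91) and from 138159116 to 138159191 (2.12) were in no other list. The difference of −2 was the same under every alternative tried for loci. Plcg1, the phospholipase gene that links the receptor to calcium, had its promoter region in the unstimulated untreated list alone (−log10 q 1.39).

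Among naive and quiescence genes 5 of 13 with a region had more and 3 fewer. The counts turned to 3 and 6 with lists of equal size, and were 4 and 2 with −log10 q of at least 3. Bcl2, the survival gene, had 3 regions against 0, and none of the 3 was in a single-factor list. The strongest lay inside the gene on chromosome 1 from 106643532 to 106643637, with −log10 q 4.28. Bach2, a repressor gene of effector differentiation, went the other way with 1 region against 3, and here the 2 lists shared none of the 4 regions. The stimulated untreated list had 4 peaks in that locus and the unstimulated phenelzine list 0. Foxo1 and Id3 each had 1 region against 0, at the promoter, with −log10 q 3.49 and 1.55, and both single-factor lists held both. Btg1 had 3 against 1 (a difference of −1 with −log10 q of at least 3), and Tcf7 1 in each, while Lef1, Il7r and Ccr7 had 0.

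Effector transcription factor genes had 6 of 16 with more and 3 fewer, which turned to 1 and 7 with lists of equal size and 2 and 3 with −log10 q of at least 3. Hif1a had 3 regions against 0, with 2 peaks in the stimulated untreated and 3 in the unstimulated phenelzine list. Its promoter region, on chromosome 12 from 73907486 to 73908033, had −log10 q 3.37 in the stimulated phenelzine list, 7.23 in the stimulated untreated and 4.77 in the unstimulated phenelzine list, so that the unstimulated untreated list was the only one without it. Ets1, a lymphocyte ETS factor gene, had 7 against 3, all inside the gene, with 3 and 4 peaks in the single-factor lists. The 5 regions of the stimulated phenelzine list alone at Ets1 had −log10 q from 1.24 to 3.64, and with lists of equal size the difference was 0. Bhlhe40, a regulator of cytokine output, had 3 against 1, with both extra regions at its gene end, though the difference was −1 with −log10 q of at least 3. Prdm1, which encodes Blimp-1, had a gene-end region in the stimulated phenelzine list alone with −log10 q 1.46, where the stimulated untreated list had 6.82. Tbx21, Eomes, Irf4 and Runx3 had 0 regions in all 4 lists.

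Cytokine, granule and activation receptor genes had a region in 10 of 28 loci (35.7%), beside 51.1% of all protein-coding genes, and of these 7 had more and 1 fewer. The counts were 5 and 1 with lists of equal size. Cd44, the hyaluronan receptor gene of activated T cells, had 3 regions against 0, all inside the gene and with −log10 q from 1.58 to 2.21. The stimulated untreated list had 2 peaks and the unstimulated phenelzine list 1 in that locus. Ccl5, Nkg7, Il2rg, Tfrc, Tnfrsf9 and Cd27 had 1 more region each, and Srgn 1 fewer. With −log10 q of at least 3 only 1 of the list had more and 0 fewer. Ifng, Il2, Gzmb, Prf1 and Cd69 had 0 in all 4 lists, so for the classical products of PMA and ionomycin stimulation there was nothing to compare.

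Inhibitory receptor and exhaustion genes had 4 of 9 with more and 2 fewer, but at gene ends 3 of all 14 members had a region in the unstimulated untreated list alone and 0 in the stimulated phenelzine list alone, beside 2.59% and 6.9% of all protein-coding genes. Tigit had a promoter region, chromosome 16 from 43664241 to 43664333, in the unstimulated untreated list alone (fold 5.34, −log10 q 3.40) and in no other list. Entpd1 had 2 regions in the unstimulated untreated list and 0 in the stimulated phenelzine list. Both Entpd1 regions were also in both single-factor lists, with −log10 q from 1.60 to 2.65, so the locus was empty with both agents only. By annotated start, Dgkz, a diacylglycerol kinase gene, had a region in the stimulated phenelzine list alone. Cd244a, the gene of the receptor 2B4, had its promoter region in the unstimulated untreated list alone with −log10 q 2.29. Pdcd1, which encodes PD-1, and Lag3 each had 2 regions against 1, and Havcr2 1 in each. With lists of equal size 0 had more and 5 fewer, and with −log10 q of at least 3 it was 2 and 3. Within 5 kb of the gene it was also 2 and 3.

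The list of LSD1 complexes and monoamine oxidases, which holds the drug's targets together with genes of their partner proteins, gave 5 of 14 with more and 3 fewer. The counts turned to 4 and 5 with lists of equal size and 3 and 4 within 5 kb of the gene. With −log10 q of at least 3 they were 7 and 2. Kdm1a had a promoter region on chromosome 4 from 136602728 to 136602832, printed above, in the stimulated phenelzine list (fold 5.97, −log10 q 4.55) and not in the unstimulated untreated list. Between the single-factor lists, the unstimulated phenelzine list held it with −log10 q 1.86 and the stimulated untreated list did not. Kdm1a thus had a peak in both lists from phenelzine-treated cells and in neither from untreated cells. Its paralogue Kdm1b had 1 promoter region in all 4 lists. Maoa, the monoamine oxidase A gene, had 0 against 1, and the region lay upstream of the start with −log10 q 2.01, while Maob had 0 throughout. Among partners of LSD1, the corepressor gene Rcor3 had 2 against 0, downstream of the gene, and Gse1 3 against 1, or −1 as a difference with −log10 q of at least 3. At Rcor3 the difference was 0 with that minimum, with lists of equal size and within 5 kb of the gene. Mta1 had 1 against 3 (no difference with −log10 q of at least 3). Its sister gene Mta2 had a promoter region in the unstimulated untreated list alone (−log10 q 1.64).

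Cell cycle genes all had a region, and 10 of 24 (41.7%) had more and 2 (8.33%) fewer. The counts turned to 4 and 5 with lists of equal size, and were 6 and 2 with −log10 q of at least 3. Of the cyclin D genes, Ccnd1 had 3 against 1 (no difference with −log10 q of at least 3), Ccnd2 2 against 1 and Ccnd3 4 against 2. Cdk9, the kinase gene of transcription elongation, had 2 against 0, but 6 in the stimulated untreated list. Ccnb1 and Cdk2 had promoter regions in the stimulated phenelzine list alone (−log10 q 1.81 and 1.54), and the replication licensing gene Mcm2 in the unstimulated untreated list alone (4.80). Cytosolic chaperone and stress genes were the most even of the 13 lists, with 15 of 19 loci equal, 3 with more and 1 with fewer. Hsp90aa1 had 3 against 1. Housekeeping genes had 5 of 14 with more (35.7%) and 3 fewer (21.4%), including Actb with 4 against 2. The counts were 2 and 5 with lists of equal size, and 3 and 3 with −log10 q of at least 3.

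**Figure D4:**
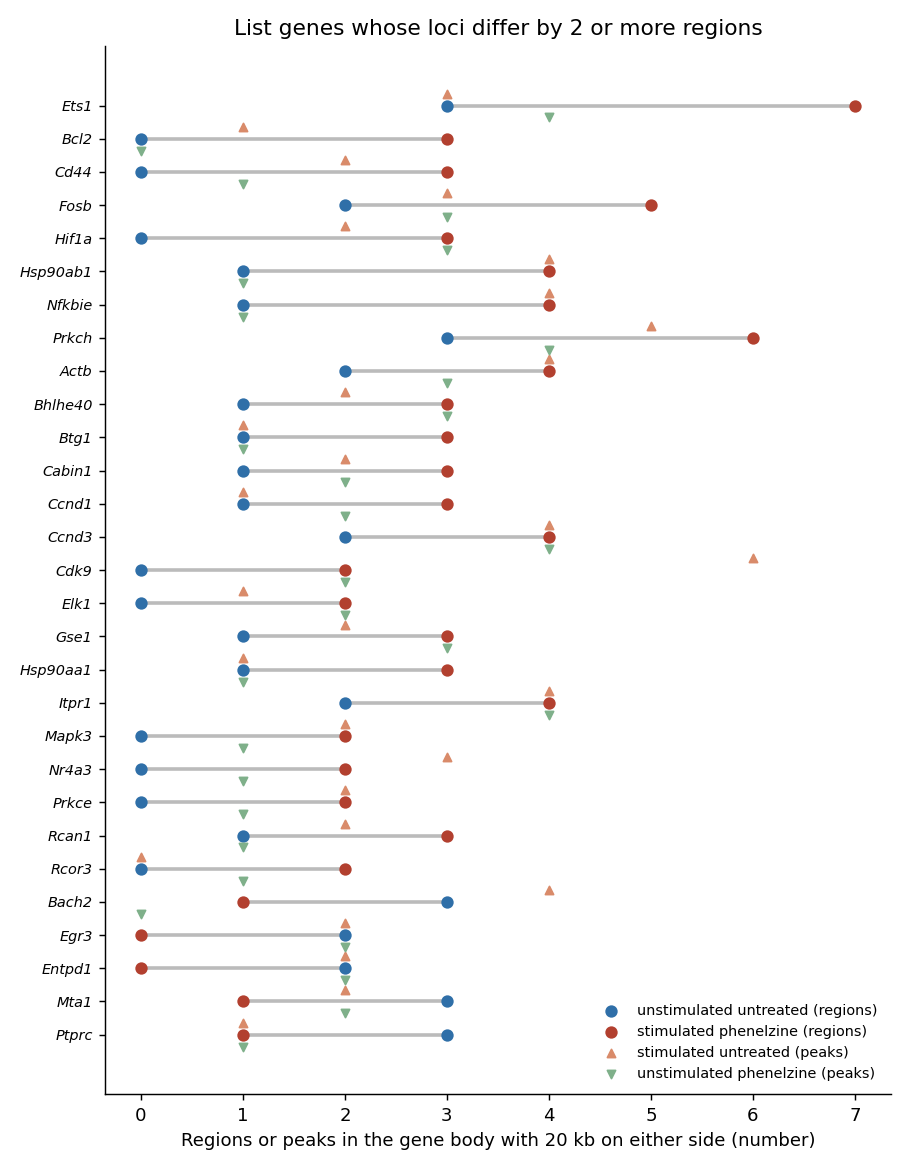
Regions or peaks per locus (horizontal axis) for members of the 13 gene lists that differed by 2 or more regions. Large points are the unstimulated untreated and stimulated phenelzine lists, and small triangles the single-factor lists. Of the 29 genes drawn, 24 had more regions in the stimulated phenelzine list, from Ets1 with 7 against 3, and 5 had fewer, namely Bach2, Egr3, Entpd1, Mta1 and Ptprc.

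Across the genome, Arhgap42 had 9 regions against 4, Thada 7 against 2, Atf6, the stress-response factor gene, 6 against 1, and Nsmce2, Ttll12, Atxn1 and Dlc1 5 against 0 each. Sfi1 had 14 against 10 and Maml2, a Notch coactivator gene, 8 against 4. In the histone cluster on chromosome 13, H2ac4, H2bc3, H3c2, H3c3 and H4c2 shared the same 8 regions against 4. At Thada the difference turned to −1 with −log10 q of at least 3, and at Sfi1 to −6 with lists of equal size. With −log10 q of at least 3 it was 0 at Atxn1, Dlc1, Sfi1 and these histone genes, and 4 at Arhgap42 and Maml2. The histone genes also had a difference of 0 with lists of equal size. The stimulated untreated list had 5 peaks at Nsmce2 and 2 at Ttll12, and the unstimulated phenelzine list 2 and 0. In the other direction the difference was at most 3 regions, in 4 genes. Ell, an elongation factor gene, had 4 against 7, with its neighbours Fkbp8 and Kxd1 at 4 against 6, and all 3 turned to a difference of 3 with −log10 q of at least 3. Anxa11, the small Maf gene Mafk and Lrrc6 had 0 against 3 each. Among genes at −2, those with the highest summed −log10 q were Rere (2 against 4), Parp6 (1 against 3), BC024978 (2 against 4) and Samd4b (2 against 4), beside Fkbp8 and Kxd1. All regions at Anxa11, Mafk and Lrrc6 had −log10 q below 3, since none was left with that minimum.

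The promoter windows under these peaks were compared in base composition and in short motifs. Windows touched by a peak of the stimulated phenelzine list alone numbered 1411, of the unstimulated untreated list alone 503 and of both lists 3805, of 21045 windows in all. Their median G and C content was 61.3%, 62.3% and 62.3%, and their median number of CpG 22, 23 and 24, where windows touched by neither list had 53.7% and 7. Composition was thus close in the 3 classes of accessible promoters and apart from the rest.

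Motifs of the factors that PMA and ionomycin activate, and the RUNX site, had overlapping 95% intervals in the promoters of the 2 lists alone. Such overlap does not show that the shares are alike. All motifs were searched on both strands. The AP-1 site TGANTCA stood in 4.04% (3.07 to 5.20) of windows of the stimulated phenelzine list alone, 3.18% (1.83 to 5.11) of those of the unstimulated untreated list alone, 3.86% of shared windows and 7.04% of all windows. The NFAT core GGAAA gave 61.6%, 57.9%, 59.2% and 60.2% in the same order. For NF-kB it was 5.32%, 8.15%, 4.49% and 4.86%, for the EGR site GCGNGGGCG 10.5%, 14.3%, 10.1% and 7.60%, and for the NR4A site AAAGGTCA 0.425%, 1.79%, 0.710% and 1.32%. The cyclic AMP element TGACGTCA gave 4.11%, 6.16%, 4.73% and 2.26%, and the RUNX site TGTGGT 11.1%, 13.7%, 10.8% and 14.7%. For AP-1 the first 3 shares were 3.38%, 3.92% and 4.09% with −log10 q of at least 3.

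Among general promoter motifs NF-Y had intervals that did not overlap between the 2 lists alone when all peaks were used. It was then the only 1 of the 12 motifs for which this held. Overlap of intervals is no test of a difference, and intervals are wide where matches are few. For NR4A there were 6 matches in 1411 windows and 9 in 503, with intervals of 0.156 to 0.923 and 0.821 to 3.37. NF-Y, searched as CCAAT, was found in 39.1% (36.6 to 41.7) of windows of the stimulated phenelzine list alone, 31.4% (27.4 to 35.7) of those of the unstimulated untreated list alone, 52.6% (51.0 to 54.2) of shared windows and 38.5% of all. With −log10 q of at least 3 the first 3 shares were 47.1%, 43.1% and 56.5%, so the 2 lists alone lay closer together. Windows of either list alone then include those where the other list had only a weaker peak. The NR4A shares at that minimum were 0.161%, 1.66% and 0.498% in the same order. Intervals were not calculated at that minimum. The ETS site CCGGAA, whose last bases can overlap the NFAT core, gave 36.5%, 32.8%, 40.3% and 18.9%, and the Sp1 and KLF site GGGCGG 67.6%, 73.0%, 74.7% and 46.7%. NRF1 gave 3.97%, 4.97%, 5.83% and 1.82%, and the TATA box TATAAA 6.02%, 3.98%, 4.84% and 12.7%. In the printed windows Top2a had 6 NF-Y matches under its peak, Hif1a and Entpd1 2 each, and Timmdc1 3 ETS matches. The H2-D1 peak touched an NF-kB match at its upstream edge and covered 2 NF-Y matches and a TATA box. No AP-1 match was found in any of the 11 printed windows. A match is a run of letters and not a bound site.

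**Figure D5:**
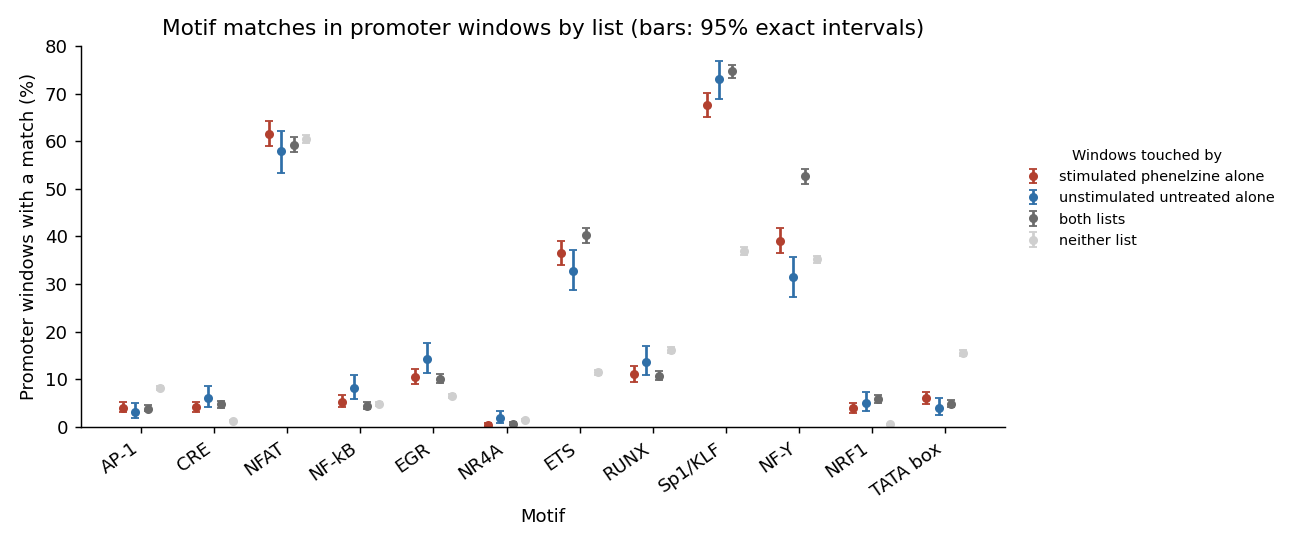
Share of 300-base promoter windows with a match (vertical axis, %) for 12 motifs, by the list whose peaks touch the window. Points are shares and bars 95% exact intervals. NF-Y matches stood in 39.1% of windows of the stimulated phenelzine list alone, 31.4% of those of the unstimulated untreated list alone and 52.6% of shared windows, and the AP-1 shares were 4.04%, 3.18% and 3.86%.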

How the data were processed

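ATAC-seq was made from CD8+ cells of BALB/c mice in 4 conditions with 1 library each. The submitters' processing notes name mm10 as the genome and HOMER, MACS2, Picard, Bowtie2 2.2.5 and Trimmomatic 0.33 as tools, and settings are not stated in the sources at hand. The authors deposited 1 list of broad peaks per library, each from its own library. The deposited score was 10 times the −log10 q in 100% of the peaks of both lists compared. The deposited fold enrichment is a ratio of pileup to local background, and p-values and q-values were deposited as −log10. Those values are the authors' and were used only to describe and rank peaks. The peak names carry the tag less120, which the sources used here do not explain. If it is a limit on fragment length, the lists cover short fragments only.

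Peaks of chromosomes 1 to 19 and X were merged by overlap of at least 1 bp with Python 3.11.15, pandas 2.3.3, NumPy 2.4.6 and SciPy 1.17.1, and drawn with matplotlib 3.10.9. Genes were the 21631 protein-coding genes of RefSeq for GRCm38.p6, the assembly of mm10. Starts came from 21045 RefSeq promoter windows, which cover 17274 genes and none on chromosome 18. Implied background was calculated from the commonest combination of fold and −log10 p per list. Merging and gene ends, tested on simulated data, returned 2000 of 2000 and 1000 of 1000 planted cases. Of 317 listed genes in 20 lists 316 matched. Intervals of shares are exact (Clopper-Pearson, 95%) and describe counting error.

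Members and gene lists were chosen with earlier results of these data known. Genes were named by rule: the 10 strongest gene-end regions of each class, the 3 strongest elsewhere, the 10 largest differences per locus in each direction, list members differing by 2 or more regions or with a gene-end region in 1 list alone, and always Cd8a, Cd8b1, Cd3e, Kdm1a, Kdm1b, Maoa and Maob. Other names appear as further list members. A few genes that the rule or the lists hold are not reported here. Alternatives covered minimum −log10 q, list size, overlap, gap, gene-end and locus windows, and, chosen after seeing the data, scaling by background and leaving out peaks of fold 12 or more.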

Additional observations from a re-analysis of the deposited data

Results flagged for a closer look

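Chromosome Y was not used in the comparison. The stimulated phenelzine list held 9 peaks there and the unstimulated untreated list 6. The unstimulated phenelzine and stimulated untreated lists held 9 each. This was picked out because it is signal outside the chromosomes compared, and no comparison was made with it.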

How the results depend on the processing

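No paired analysis was possible because each condition has 1 library and nothing was tested. A minimum −log10 q was applied to both lists before merging. A region thus counted as 1 list alone where the other list had only a weaker peak. Of the 4300 and 1494 regions of 1 list alone without a minimum, 891 and 304 had −log10 q of at least 3. A minimum of 3 gave 1846 regions in the stimulated phenelzine list alone (36.8%), 985 in the unstimulated untreated list alone and 2189 in both. With a minimum of 2 the number was 2725 (34.5%) in the first. With lists of equal size it was 2195 (25.2%). The share was 40.7% with an overlap of at least 50% of the shorter peak, 38.8% with gaps of up to 1000 bp joined and 31.8% after scaling by background, an alternative chosen after seeing the data that kept 7696 of 9322 peaks. Leaving out peaks of fold 12 or more, also chosen after seeing the data, left 4299 regions of the stimulated phenelzine list alone. Gene-end genes of the unstimulated untreated list alone numbered 961 with equal lists, and those of both lists 2272 at a minimum −log10 q of 3. Genes with more regions numbered 2781 at that minimum and 2473 with equal lists, where 2361 had fewer.

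A minimum −log10 q of 3 was also set in the lists compared with the single-factor lists kept whole. Regions then counted as either list alone include those where the other list compared had only a weaker peak. Shares for regions without any such peak were not calculated at that minimum. Of regions counted as the stimulated phenelzine list alone, 80.6% were in the stimulated untreated list, 68.6% in the unstimulated phenelzine list and 12.9% in neither. For the unstimulated untreated list alone the shares were 82.5%, 73.2% and 11.1%. Allowing a gap of 500 bp gave 46.9%, 33.9% and 44.1%, and 50%, 37.3% and 41.6%. 

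At a minimum −log10 q of 3 the difference in regions turned to −1 at Bhlhe40, Btg1, Fosb, Gse1 and Thada and to 3 at Ell, Fkbp8 and Kxd1. With equal lists it turned to −1 at Fosb and −6 at Sfi1. Of 228 values for named loci, 110 stayed, 108 changed in size and these 10 reversed. Among values for gene lists 56 of 104 stayed. Read totals are not in the lists, so the part of depth in the regions of 1 list alone was not tested, and a missing peak does not show closed DNA.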
